A study of Mus musculus with 2 samples.

Results

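The E2F and retinoblastoma family genes are 10 named genes: E2f1, E2f2 and E2f3, E2f4 and E2f5, E2f7 and E2f8, and the pocket protein genes Rb1, Rbl1 and Rbl2. They were chosen by name, and 10 of the 21938 protein-coding genes of the annotation are members. The assay was ATAC-seq, which reads open chromatin: a transposase cuts where nucleosomes leave room, and such sites appear as peaks of reads. The cells were CFU-E, red cell progenitors that depend on erythropoietin, as primary cells of male adult C57BL/6J mice aged 5 to 6 weeks, with no genotype or treatment given in the labels. One group was made, of 2 libraries from 50000 cells each, which the labels number as replicates 1 and 2, assign to separate biosamples and trace to a single donor identifier. Every value below describes that group, and the design holds no comparison between conditions.

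Peak records of the series list, which the authors called on both libraries together and thresholded on the irreproducible discovery rate (IDR, a measure of how well peaks repeat), were merged into 24394 regions. Of these, 31 belonged to the 10 genes: a region counted for a gene when its midpoint lay in the gene body, or when the nearest protein-coding start was that gene's and lay within 100 kb. The replicates' own lists held 24 and 20 such regions of 18685 and 17854. The strength of a region is the authors' fold enrichment over local background at its strongest record, beside the authors' −log10 p of that region. The 2 libraries differed from each other by less than parts of the pooled reads did: the median absolute deviation of the log2 ratio of −log10 p was 0.174 over 32373 matched records between libraries, and 0.263 over 31628 between the parts. That comparison does not show whether they are separate samples, so they were counted as 1 sample out of caution, and the values of both are given without an SD. The erythroid label was checked against marker genes. A promoter region was found at 12 of 12 erythroid markers, 2 of 8 granulocyte and monocyte markers (Prtn3, Fcgr3), 0 of 8 T and B cell markers, 4 of 6 megakaryocyte markers (Itga2b, Gp1ba, Gp9, Vwf) and 1 of 6 stem and early progenitor markers (Hlf). Of all protein-coding genes, 45.8% had a promoter region. In each replicate's own list the marker counts were 11, 1, 0, 3 and 0 in the same order. In the authors' less strict overlap list they were 12, 2, 1, 4 and 3. Kit, counted here among the stem markers, had 0 regions in the series list and no promoter region in the overlap list. The part of other cells in the values below was not tested.

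E2F proteins bind DNA as regulators of the genes for DNA replication, most of them as dimers with a DP protein. The pocket proteins RB, p107 and p130, encoded by Rb1, Rbl1 and Rbl2, bind E2F proteins and keep target genes silent until cyclin-dependent kinases phosphorylate them and the cell enters S phase. In the red cell lineage, CFU-E divide rapidly and their descendants leave the cell cycle as they mature. Mice that lack Rb1 or E2f4 have defects of red cell maturation, and E2f2 is known for a role in erythroblast maturation.

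Of the 10 genes, 6 had an exact E2F consensus (TTTCCCGC, TTTGGCGC, TTTGCCGC or TTTCGCGC, either strand) between 250 bases before and 50 bases after their first coding start: E2f1, E2f2, E2f3, E2f7, Rb1 and Rbl1. The share over the 9999 coding genes with a promoter region and a coding start was 4.65%. That window was chosen after the data were seen. E2f8 had none there, and the match shown for it lies before its second coding start. These windows of 30 bases, read on the strand of the gene from GRCm38 (the sequence of mm10), are shown because they place the consensus of the family's own DNA binding at the starts of its members. Capitals mark the E2F matches.
E2f1: tttcGCGGCAAAaaggaTTTGGCGCgtaaa
E2f2: gcggcatatagTTTGGCGCtaaaaaaaaaa
E2f3: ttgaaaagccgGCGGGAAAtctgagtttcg
E2f7: cccgcgtccccGCGGGAAAcgctcccgcgt
E2f8: tcccgctttccGCGCCAAAtttttaaatcg
Rb1: ggaagtgacgtTTTCCCGCggttggcccgg
Rbl1: aagaaggcgatTTTCGCGCgctttgtcgcg

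These windows lie at chr2:154569863-154569892 on the minus strand (E2f1), chr4:136172302-136172331 on the plus strand (E2f2), chr13:29986056-29986085 on the minus strand (E2f3) and chr10:110745230-110745259 on the plus strand (E2f7). Those of E2f8, Rb1 and Rbl1, all on the minus strand, lie at chr7:48881193-48881222, chr14:73325802-73325831 and chr2:157204534-157204563. E2f1 held 2 matches, centred 7 and 20 bases after its first coding start, in the transcribed leader. The match of E2f3 lay 8 bases before the start, that of Rbl1 37 bases before, that of E2f2 77 bases before and that of E2f7 220 bases before. The match of Rb1 lay 5 bases after its start, and the one of E2f8 167 bases before its second coding start. All of these lay inside an accessible region except that of E2f2, of which 2 of 8 bases did.

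The second set of sequences comes from regions away from the members' own starts. A GATA match (the core GATA with A or T before it and A or G after it) and a KLF match (CCACACCC, CCACGCCC, CCCCACCC or CCCCGCCC), either strand, both lay within 100 bp of the summit in 3 of the 12 distal regions of the genes, 2 of E2f2 and 1 of E2f4. The share was 8.58% over all 12040 distal regions. Each match alone was a planned count, and the pairing of GATA with KLF was not. GATA1 and KLF1, transcription factors of the red cell lineage, are known to bind such letters. A match is a description of letters and not of binding. The windows of 151 bases are centred on the summits, with GATA and KLF matches in capitals. An intron in a label is that of the summit, and the E2f4 window also overlaps an annotated exon. The fourth window, before Rb1, is shown because it is the strongest region of that gene by fold and holds a GATA match. Its region was classed at the start of another annotated gene and is not among the 12 distal ones.
E2f2, intron 6: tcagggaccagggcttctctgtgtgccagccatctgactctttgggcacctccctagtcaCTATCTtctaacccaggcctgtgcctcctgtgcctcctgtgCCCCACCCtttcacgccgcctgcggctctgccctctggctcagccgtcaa
E2f2, intron 1: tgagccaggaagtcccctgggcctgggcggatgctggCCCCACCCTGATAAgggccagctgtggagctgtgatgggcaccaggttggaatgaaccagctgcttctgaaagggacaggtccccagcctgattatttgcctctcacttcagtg
E2f4, intron 5: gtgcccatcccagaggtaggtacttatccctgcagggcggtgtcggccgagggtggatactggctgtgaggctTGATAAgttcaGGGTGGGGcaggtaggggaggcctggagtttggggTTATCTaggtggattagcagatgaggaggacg
Rb1, upstream: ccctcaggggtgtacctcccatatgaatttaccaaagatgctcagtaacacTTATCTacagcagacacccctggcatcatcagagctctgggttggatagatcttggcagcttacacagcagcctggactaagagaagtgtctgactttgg

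Their positions are chr4:136189938-136190088, chr4:136178089-136178239 and chr8:105300105-105300255, each on the plus strand, and chr14:73334095-73334245 on the minus strand. In the intron 1 window of E2f2 the KLF match ends where the GATA match begins, with 0 bases between them. In the E2f4 window 5 bases separate the first GATA match from the KLF match, and in the intron 6 window of E2f2 35 bases do. All 3 of these E2f2 and E2f4 windows also held the longer pair of CTG, 7 to 9 bases and GATA, the form associated with joint binding of TAL1 and GATA1. It occurred at 3 of the 12 distal summits and at 15.8% of all distal summits.

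All 10 genes had a promoter region, meaning a region within reach of 1 kb of one of their annotated starts, in the series list. The share over all protein-coding genes was 45.8%. All 10 also had one in replicate 1 (43.5% of all coding genes), in replicate 2 (42.6%) and in the less strict overlap list (52.3%). The level of these regions spread widely. The fold of the promoter region ran from 4.26 at E2f2 to 15.5 at E2f5 with a median of 9.30, beside a median of 10.7 over the 10049 coding genes that had one. The median percentile of the 10 genes among those 10049 was 34.1 by fold and 36.6 by −log10 p.

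**Figure D1:**
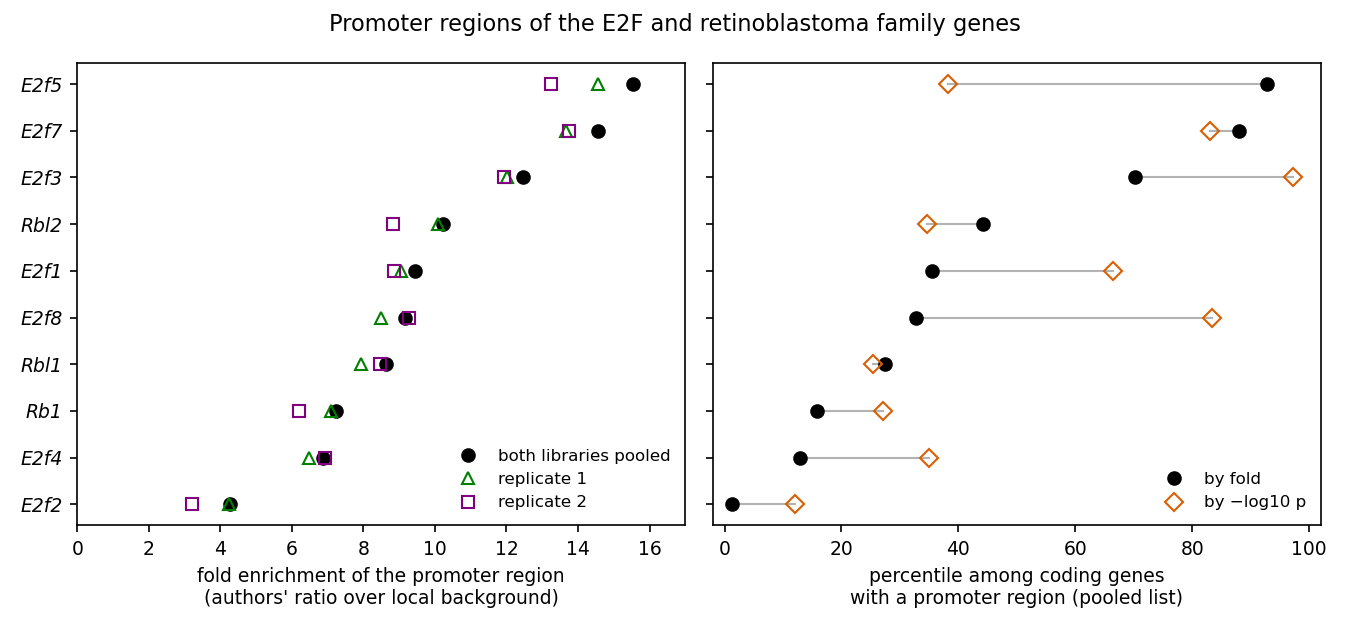
Promoter regions of the 10 genes, sorted by fold. The left panel gives the authors' fold enrichment (linear axis) in the pooled list and in each replicate's own list, from 4.26 at E2f2 to 15.5 at E2f5 in the pooled list. The right panel gives the percentile of each gene among coding genes with a promoter region by fold and by −log10 p; the grey line joins the 2 measures, which lie far apart for E2f5, E2f8, E2f1 and E2f3.

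E2f1, E2f2 and E2f3 encode the E2F proteins that activate S phase genes and that RB restrains. The promoter region of E2f1 (chr2:154569581-154570563, 983 bp) covered both of its annotated starts. Its fold was 9.44 in the pooled list, 9.05 in replicate 1 and 8.85 in replicate 2, which was percentile 35.5 by fold. By −log10 p, 156, it stood higher, at percentile 66.5. A weaker region, chr2:154568852-154569531, lay in exon 1 behind it, with a fold of 5.60 in the pooled list, 5.50 in replicate 1 and 5.37 in replicate 2. No distal region was assigned to E2f1.

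The promoter region of E2f3 (chr13:29985891-29986772, 882 bp) had a fold of 12.5, with 12.0 in replicate 1 and 11.9 in replicate 2. It stood at percentile 70.2 by fold and at percentile 97.1 by −log10 p (231), the highest of the 10 genes on the second measure. E2f3 has a pair of coding starts in the annotation, and the region covered only the upstream one, at 29986063. The other coding start, at 29984391, was 1500 bp from the nearest region in the pooled list and in replicate 1, and 1512 bp from it in replicate 2. The same start was 1500 bp from a region in the overlap list.

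The bases before the starts of E2f1 and E2f3 are shown because their summits carried more copies of the CCAAT box than those of the other members. CCAAT, either strand, is the box bound by NF-Y, a factor of many cell cycle promoters. Capitals mark CCAAT or its complement, and each run ends at the base before the first coding start.
E2f1, before the start: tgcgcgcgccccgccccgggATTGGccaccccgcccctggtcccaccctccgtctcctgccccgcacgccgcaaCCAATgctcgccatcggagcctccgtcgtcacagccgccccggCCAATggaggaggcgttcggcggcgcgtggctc
E2f3, before the start: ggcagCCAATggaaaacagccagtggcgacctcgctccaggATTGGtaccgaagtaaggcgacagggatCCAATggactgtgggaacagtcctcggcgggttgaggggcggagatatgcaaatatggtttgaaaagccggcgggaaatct

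The run of E2f1 is chr2:154569893-154570042 and that of E2f3 is chr13:29986064-29986213, both on the minus strand. Each held 3 CCAAT boxes within 100 bp of its summit. E2f7 and E2f8 held 2 each, so that 4 of the 19 member regions at annotated starts had 2 or more, against 11.6% of all 12354 regions at annotated starts. Counting regions with 2 or more boxes was not planned. At least 1 CCAAT box was present at 7 of the 19, against 31.9%, and at 0 of the 12 distal regions, against 21.5%.

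E2f2 differed from the other members in layout: it had 9 regions, the most of the 10 genes, and no other member had so low a fold at its coding starts. As many regions or more were assigned to 1.04% of coding genes. The regions ran from 12.2 kb before the coding start to 17.98 kb after it. At the start itself, chr4:136172394, accessibility was low. A region 208 bp before it (chr4:136171964-136172314) had a fold of 3.59 and was in the list of replicate 1, at 3.68, but not in that of replicate 2. A region 233 bp after it (chr4:136172478-136172753), in exon 1, had a fold of 3.55, with 3.71 in replicate 1 and 3.22 in replicate 2. The coding start lay in the gap between them, 80 bp from the nearer one. Of the 10 genes, 9 had a coding start inside a region, and 93.3% of coding genes with a promoter region did. E2f8 was among these 9 by its second coding start alone, since its first lay 14 bp from a region. Another region at a start of E2f2 (chr4:136180018-136180407, fold 4.26) lay by an internal start of a non-coding transcript and set the value of 4.26 plotted for E2f2, which was percentile 1.31. It was in the list of replicate 1, at 4.23, and not in that of replicate 2, where the highest fold at any start of E2f2 was 3.22. In the replicates' own lists the gene stood at percentiles 0.556 and 0.0428.

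The strongest region of E2f2 lay in intron 6, 17.6 kb after the coding start (chr4:136189466-136190371, 906 bp). Its fold was 11.7 in the pooled list, 10.9 in replicate 1 and 12.2 in replicate 2, and its −log10 p was 209.8. By fold it stood at percentile 92.5 of all distal regions and at percentile 82.0 of all regions. By −log10 p it stood at percentile 97.0 of all regions. The next in strength lay 8.69 kb before the start (chr4:136163458-136163983), with folds of 9.30, 8.41 and 8.61 in the same order. Its summit held no GATA match within 100 bp, and the nearest one was 142 bp away. Both of these regions exceeded every region at the starts of E2f2 in the pooled list and in each replicate.

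Intron 1 of E2f2 held 3 further distal regions. The one at 5.77 kb (chr4:136177947-136178376), whose KLF and GATA matches adjoin, had a fold of 5.12, with 4.64 in replicate 1 and 5.51 in replicate 2. The one at 2.60 kb (chr4:136174663-136175148) had a fold of 4.42, with 4.18 in replicate 1 and 4.42 in replicate 2. The one at 5.29 kb (chr4:136177311-136177862, fold 3.46) was in the list of replicate 1 alone. All 3 held a KLF match at the summit, and only that at 5.77 kb also held a GATA match there. The remaining distal region, 12.1 kb before the start (chr4:136160197-136160425, fold 6.57), was in the list of replicate 2 alone and held a GATA match at its summit.

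**Figure D2:**
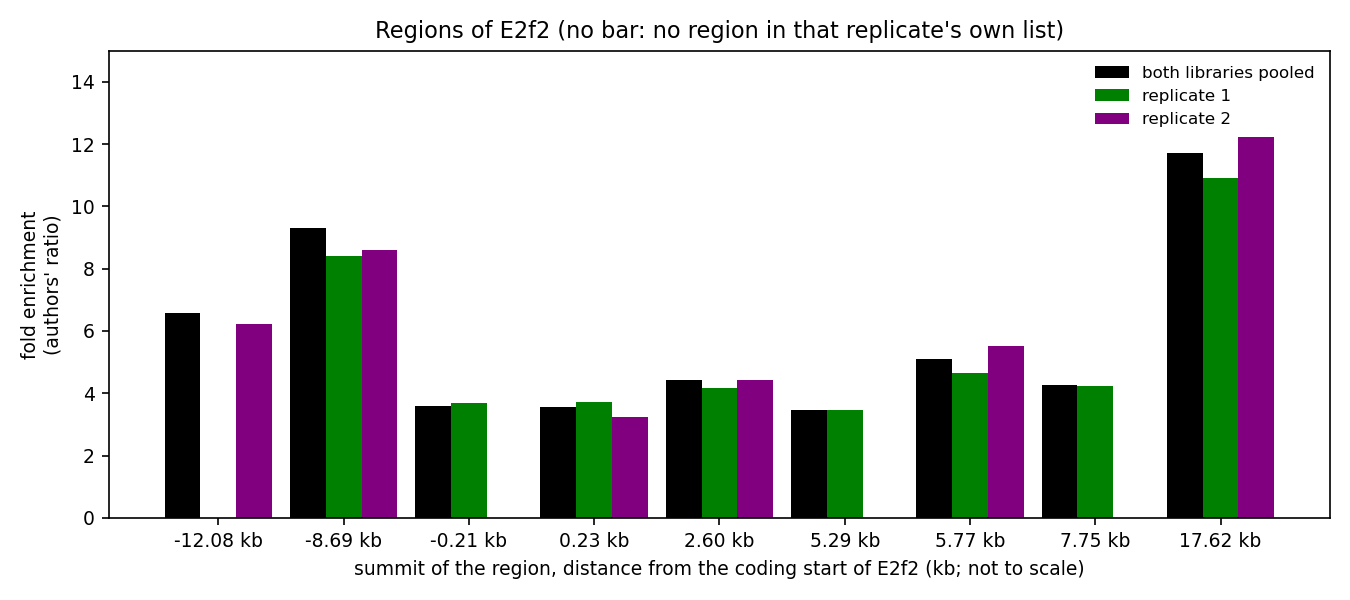
Regions of E2f2 in order along the gene, labelled by the distance of the summit from the coding start (spacing not to scale). Bars give the authors' fold enrichment (from 0) in the pooled list, replicate 1 and replicate 2. The region at 17.6 kb reaches 11.7 and the one at −8.69 kb 9.30 in the pooled list, while the regions at −0.21 and 0.23 kb stay at 3.59 and 3.55.

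E2f4 and E2f5 encode the E2F proteins that act mainly with p107 and p130 as repressors in resting cells. Their promoters stood near opposite ends of the range of fold. The E2f4 region (chr8:105297317-105297798, 482 bp) had a fold of 6.88, with 6.48 in replicate 1 and 6.92 in replicate 2, at percentile 12.9 (8.45 and 11.8 in the replicates' own lists). The E2f5 region (chr3:14578367-14579248, 882 bp) had a fold of 15.5, with 14.6 in replicate 1 and 13.3 in replicate 2, at percentile 92.8. The measures did not rank E2f5 alike: its −log10 p of 108 was at percentile 38.2, and that of E2f4, 102, at percentile 35.0. The pair was far apart by fold and close by −log10 p. The summit of the E2f4 promoter held a GATA match at 0 bases from the summit. The summit of E2f5 held a KLF match, and no E2F match lay in the start window of either gene.

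E2f4 had 1 distal region and E2f5 none. The distal region of E2f4 (chr8:105299922-105300529, 608 bp) had its summit in intron 5, 2.52 kb after the coding start. Its fold was 7.19, with 7.05 in replicate 1 and 6.94 in replicate 2, and its −log10 p was 126. Both measures put it above the promoter of the gene in the pooled list. In replicate 2 the folds of the promoter and of this region, 6.92 and 6.94, were nearly equal.

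E2f7 and E2f8 encode the atypical E2F proteins, which bind DNA without a DP partner and repress E2F target genes late in S phase. The E2f7 region (chr10:110744931-110746009, 1079 bp) had a fold of 14.6, with 13.7 in replicate 1 and 13.8 in replicate 2. It ranked high on both measures, at percentile 87.9 by fold and percentile 83.0 by −log10 p (188). It was the only region of E2f7 in the pooled list.

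E2f8 had 7 regions, and 2.19% of coding genes had as many or more. The strongest (chr7:48880577-48881425, 849 bp) covered its second coding start, with a fold of 9.16 in the pooled list, 8.50 in replicate 1 and 9.27 in replicate 2. Its −log10 p, 188, stood at percentile 83.3 and its fold at percentile 32.8. A start of Gm2788, at chr7:48881300 on the other strand and annotated as antisense, lies within that region, so its accessibility cannot be assigned to either gene. In front of it the signal was split into smaller regions: chr7:48881610-48881835 had a fold of 5.26 in the pooled list, 5.09 in replicate 1 and 5.18 in replicate 2. The next 2, chr7:48881903-48882260 (4.31) and chr7:48882521-48882774 (2.51), were in the list of replicate 1 alone and in neither list, respectively. The 3 regions of E2f8 farther out did not repeat in both replicates either. The one 12.8 kb before the first coding start (chr7:48894193-48894630, fold 6.08), with a match to the CTCF consensus 12 bp from its summit, was in replicate 1 alone. The one in intron 2 (chr7:48879706-48879912, fold 2.87) was in replicate 2 alone. The one in intron 9 (chr7:48871193-48871616, fold 5.39) was in neither. A CTCF match was present at 1 of the 12 distal summits and at 11.6% of all distal summits.

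Rb1, Rbl1 and Rbl2 encode the pocket proteins. Their promoter folds lay below the median of 10.7 over coding genes in all 3 cases. The Rb1 region (chr14:73325613-73326331, 719 bp) had a fold of 7.23, with 7.09 in replicate 1 and 6.21 in replicate 2, at percentile 15.7. Within the replicates' own lists it stood at percentile 13.2 and, in replicate 2, at 6.56. The Rbl1 region (chr2:157204281-157205140, 860 bp) had a fold of 8.64, with 7.93 in replicate 1 and 8.46 in replicate 2, at percentile 27.4. The Rbl2 region (chr8:91069495-91071067, 1573 bp) had a fold of 10.2, with 10.1 in replicate 1 and 8.83 in replicate 2, at percentile 44.3. The widest region of all 31 was that of Rbl2, with 5 summits. By −log10 p the 3 genes lay closer together: 85.7, 81.6 and 101, at percentiles 27.1, 25.3 and 34.6.

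Rb1 is the only pocket protein gene to which a distal region was assigned. It lay in intron 1 (chr14:73322178-73322489, fold 4.27), was in the list of replicate 1 alone, and held 2 GATA matches at its summit. The strongest region near Rb1 lay 8.35 kb before its start (chr14:73333945-73334401, 457 bp). Its fold was 11.6, with 10.4 in replicate 1 and 10.4 in replicate 2, against 7.23 at the Rb1 promoter. By −log10 p the order was the other way, 69.6 against 85.7. The midpoint of that region lay 919 bp from the annotated start of Gm49131, a processed pseudogene, and was therefore classed at the start of another gene. The corresponding region of Rbl2, 9.31 kb before its start (chr8:91060320-91061151, fold 7.32), lay 660 bp from the start of the small nucleolar RNA gene Gm22428 and was in neither replicate's list. Both Rb1 and Rbl1 had a weak region behind the promoter, with folds of 3.05 and 3.40, and neither of these was in a replicate's list.

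**Figure D3:**
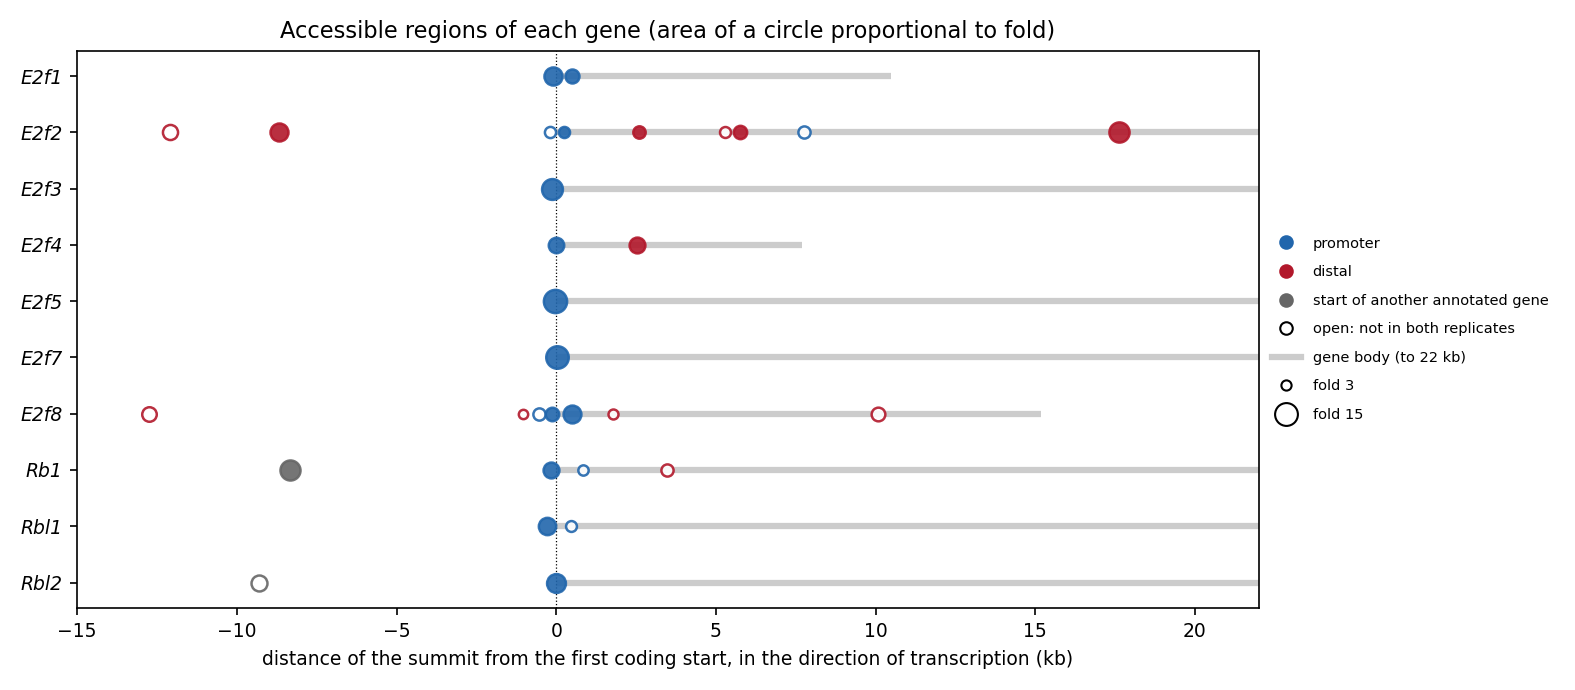
The 31 regions of the 10 genes, by the distance of the summit from the first coding start in the direction of transcription (kb, to scale). The area of a circle is proportional to fold, colours give the class, open circles are regions that were not in both replicates' lists, and grey lines are gene bodies. E2f2 and E2f8 have 9 and 7 regions, and the strong red circle of E2f2 is its region in intron 6.

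By class, 17 of the 31 regions lay at the members' own starts, 12 were distal (midpoint over 1 kb from any annotated start of any gene) and 2 lay at starts of other genes. The distal regions belonged to 4 genes, 6 to E2f2, 4 to E2f8 and 1 each to E2f4 and Rb1, and 27.6% of all coding genes had a distal region. The E2f8 regions with folds of 2.51 and 2.87 were distal by little. Their midpoints lay 1052 and 1195 bp from its own starts, and the first overlapped its promoter window. Distal regions of the members had a median fold of 5.25 (2.51 to 11.7), beside 6.52 for all distal regions. Those at own starts had a median of 6.88 (3.05 to 15.5), beside 9.23 for all 12354 regions at annotated starts. The gene's strongest region by fold lay outside its own promoter windows in 3 of the 10 genes, E2f2, E2f4 and Rb1. The share was 17.2% of the 9534 coding genes with a promoter region and an assigned region. By −log10 p it did so in 2 genes, E2f2 and E2f4, against 13.2%.

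Of the 31 regions, 18 were in both replicates' own lists, and 65.3% of all regions were. At the members' own starts this held for 12 of 17, and for 79.4% of all regions at annotated starts. For the distal ones it held for 5 of 12, and for 50.7% of all distal regions. The 5 were 4 of E2f2 and the 1 of E2f4, so no distal region of E2f8 or Rb1 was in both lists. The 6 regions of replicate 1 alone had a median fold of 4.27 and the 5 of neither replicate one of 3.40, beside 8.90 for the 18. The ranges overlapped: the 13 that did not repeat ran from 2.51 to 7.32, the region before Rbl2, and the 18 from 3.55 to 15.5. The 2 of replicate 2 alone had folds of 2.87 and 6.57. Where both replicates had a value, their folds were close. The log2 ratio of replicate 2 to replicate 1 had a median of 0.0064 over the 18 regions and ran from −0.20 to 0.25. The middle 95% of the 15920 regions shared by the replicates ran from −0.36 to 0.25.

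The less strict overlap list added 16 regions to the 31 for 47 in all, and 43.6% of its 42936 regions were not in the IDR-thresholded list. The median fold of the 16 was 3.48, beside 3.34 for all 18707 such regions. They gave distal regions to 4 more genes: E2f3, E2f7, Rbl1 and Rbl2. E2f7 gained 4, with folds of 3.57 to 5.53. Rbl1 gained 3, of which the strongest (chr2:157184828-157185706, fold 6.20) lay in intron 11 and was in the overlap list of each replicate. E2f3 gained 1, in intron 1 (chr13:29958006-29958245, fold 3.92), in neither replicate's overlap list. E2f1 and E2f5 gained none.

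Matches at the summits were counted apart for the 19 regions at annotated starts, own or of another gene, and the 12 distal ones. A GATA match was found at 2 of the 19 and at 6 of the 12, where all regions of those classes had 16.7% and 49.8%. The distal count was thus at the share of its class, and the count at starts somewhat below its own. A KLF match was found at 12 of the 31, 5 at annotated starts and 7 distal, where 29.4% of all regions had one. By class, the 5 of 19 stood beside 39.6% of all regions at annotated starts, and the 7 of 12 beside 18.97% of all distal regions. Those 7 belonged to E2f2, E2f4 and E2f8 alone, so they are not independent. The ones of E2f8 had folds of 2.51 and 2.87, and neither was in both replicates' lists. An E2F match within 100 bp of the summit was found at 2 of the 19 and 0 of the 12, where all regions had 3.06% and 0.731%. Those 2 were an upstream region of E2f8 and the weak region behind the Rbl1 promoter, so none of the start matches printed above fell wholly within 100 bp of a summit. The ETS consensus CCGGAAGT was at 0 of the 19 summits (6.85% of all). The cell cycle element TTTGAA, known as CHR, was at 2 of the 19, of Rbl1 and Rbl2 (5.88%). Member regions at annotated starts had a median GC content of 67.7% over these windows, against 63.7% for all. The distal ones had 58.5%, against 51.2%.

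**Figure D4:**
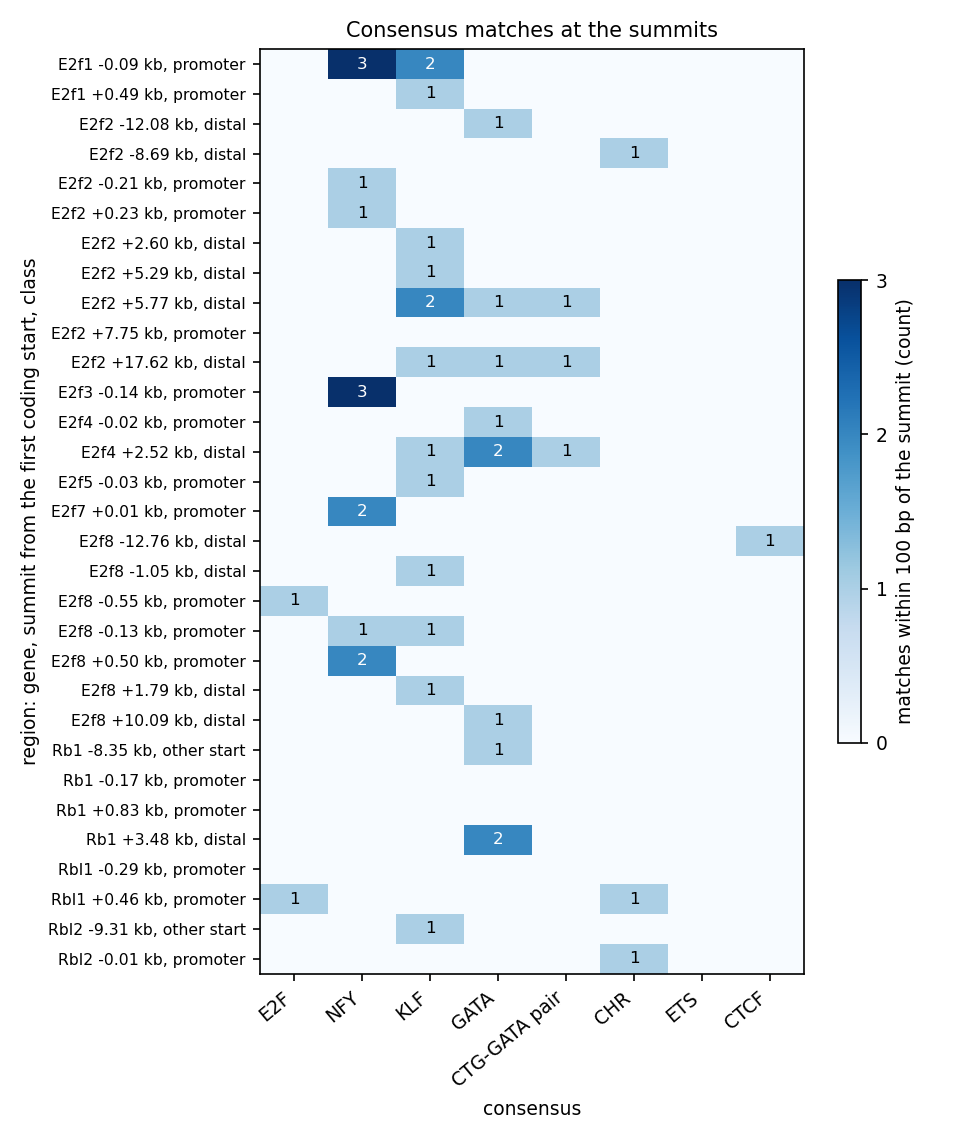
Number of consensus matches within 100 bp of the summit (colour and digits, 0 to 3) for each of the 31 regions (rows, named by gene, distance of the summit from the first coding start and class). Columns are the consensus letters given in the text. CCAAT boxes (NFY) occur in 7 of the 19 rows at annotated starts (31.9% of all such regions), led by E2f1 and E2f3 with 3 each. GATA and KLF fall together in 2 rows of E2f2 and 1 of E2f4.

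The genes that act with the family were described from lists fixed by name. Over all protein-coding genes, 45.8% had a promoter region, and the median fold of those was 10.7. The list of E2F dimer partners and MuvB and DREAM genes also holds E2f6, itself an E2F gene (fold 7.18), and Foxm1, not a MuvB subunit (8.08). In that list, 11 of 11 genes had a promoter region, with a median fold of 9.02. The highest were those of Tfdp2 (14.04), which encodes a DP partner, Mybl2 (13.0), which encodes the MuvB partner B-Myb, and Rbbp4 (10.03), a histone-binding subunit. Of the G1 kinases, cyclins and inhibitors that act on the pocket proteins, 12 of 15 had one, with a median fold of 8.71. The highest were those of Cdk2 (12.5), the kinase of cyclin E, Cdk6 (9.47), a kinase of D cyclins, and Cdkn1b (9.16), which encodes the inhibitor p27. The D cyclin genes Ccnd1 and Ccnd2 and the inhibitor gene Cdkn2a had none. Ccnd2 nevertheless had 3 distal regions, and Ccnd1 and Cdkn2a had 0 regions of any kind. Of the textbook E2F target genes of S phase, 22 of 22 had a promoter region, with a median fold of 10.6. Pola1, a DNA polymerase subunit, had 16.8, Mcm3, a subunit of the replicative helicase, 15.8, and Cdc25a, a phosphatase that activates cyclin-dependent kinases, 14.4. An E2F match in the start window described above was found at 10 of these 22 target genes, and at 4.65% of the 9999 coding genes with a promoter region and a coding start. Beside the 6 of 10 members, it was found at 1 of 11 genes of the partner and MuvB list (Tfdp1). The G1 genes had it at 2 of 12 (Cdk2 and Cdkn2d) and the erythroid markers at 0 of 12.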

How the data were processed

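Both libraries were profiled by ATAC-seq, and the analysis began at the peak lists that the authors deposited on mm10, per the file headers and the deposited listing. For the aligner and the peak caller, no name or version is given in the sources used here. Fold is the authors' ratio of a peak over local background, and its scale is that of its own list. Significance stands in the deposited lists as −log10 p-values of the authors. The deposited score, also of the authors, had a minimum of 540 in the thresholded lists. Peak lists carry no read depth, so precision per region is unknown. Signal tracks and 2 further lists of replicated peaks were not used here.

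Records that overlapped or touched were merged. A merged region took the fold and summit of its strongest record by fold, and the highest −log10 p of any of its records. In a region of several records, fold and −log10 p may therefore come from different records. Positions are 1-based on GRCm38 with GENCODE M21 starts. A region was distal when its midpoint lay over 1 kb from any annotated start. Percentiles were taken within a list. Which ranked list compared the 2 libraries was read from the values: 95.8% and 95.2% of its values occurred in the lists of replicates 1 and 2, against 48.5% and 48.1% in the other. The other was taken as the split of pooled reads. Motif search was tested on simulated sequence, with 200 of 200 planted matches found. No test across groups was possible. The named genes were all members and, of each pathway list, the 3 with the highest promoter fold and every gene without a promoter region; of the marker lists, the genes against the label. The members and lists were chosen with earlier results of these data known. Scripts used Python 3.11.15, pandas 2.3.3, NumPy 2.4.6 and pysam 0.24.0. Alternatives were other lists, windows, reaches, merging distances and leaving out each replicate.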

Additional observations from a re-analysis of the deposited data

How the results depend on the processing

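All 10 genes kept a promoter region in each list tried and with windows of 500 bp and 2 kb, except among the upper 50% of regions by fold, where 7 did (not E2f2, E2f4 and Rb1). There, 10 regions, 2 distal regions and 1 gene with a distal region were left, by construction of that stricter threshold. The overlap list gave 47 regions, 27 distal regions and 8 genes with a distal region. A promoter window of 500 bp gave 18 distal regions at 7 genes, and one of 2 kb gave 10 at 4 genes. Leaving out a replicate meant reading the other replicate's own list, since no pooled list was called again, so it adds no further check. Doing so in turn gave 20 to 24 regions (31 in the pooled list), 7 to 8 distal regions (12) and 3 to 4 genes with a distal region (4). The fewest came without replicate 1. Without replicate 1 the percentile of Rb1 fell from 15.7 to 6.56 and that of E2f2 from 1.31 to 0.0428, and without replicate 2 that of E2f2 fell to 0.556 and that of E2f4 from 12.9 to 8.45. The median percentile of the promoters, 34.1, was 36.6 by −log10 p, and with each replicate left out it ran from 29.5 to 30.7. By −log10 p in place of fold, E2f5 moved from percentile 92.8 to percentile 38.2 and E2f8 from percentile 32.8 to percentile 83.3; the cause was not tested. Matches over all consensus letters rose from 36 within 100 bp of the summits to 63 within 200 bp, a wider window by construction. Counting distal regions from the starts of protein-coding genes alone, an alternative chosen after seeing the data, gave 14 distal regions at 5 genes. Of the alternatives to the main results, 37 stayed within the spread allowed and 13 moved. The spread allowed was a ratio of 1.5 for counts and narrower for the median percentile, so the tally mixes rules. No paired analysis was possible because the series holds 1 group. Depth is unknown, so a region missing from a replicate's list may have been under that list's threshold.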
